A study of Mus musculus with 12 samples.

Results

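The genes described here are 10 enzymes and regulators of de novo lipogenesis in mouse liver: Srebf1, Mlxipl, Thrsp, Slc13a5, Pklr, Acly, Me1, Acaca, Acacb and Fasn. They were chosen by gene symbol out of 26031 genes with counts in some libraries. All 10 had counts in the high-fat-diet libraries with and without vehicle. Counts in all 12 libraries were given for 7 of them. Mlxipl and Acacb had no PCN counts here and Acaca had neither PCN nor chow counts, because 5 of the 6 deposited tables gave values for called genes alone.

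De novo lipogenesis turns glucose carbon into fatty acids in the cytosol. Glycolysis delivers pyruvate to mitochondria, citrate is exported and split into acetyl-CoA, acetyl-CoA is carboxylated to malonyl-CoA, and fatty acid synthase builds palmitate from it with NADPH. In liver the transcription factors SREBP1c, which responds to insulin, and ChREBP, which responds to glucose metabolites, are the best known activators of these genes.

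RNA from pieces of liver of C57BL/6N mice was sequenced in 4 groups of 3 libraries. Mice were 6 weeks old at the start of 15 weeks on their diet. The PCN group had a high-fat diet and intraperitoneal PCN at 50 mg/kg, the vehicle group a high-fat diet and injected vehicle (30% DMSO in corn oil), both once daily for 4 days, the HFD group a high-fat diet with no injection, and the chow group regular chow with no injection. PCN, pregnenolone 16α-carbonitrile, is a synthetic compound of steroid structure. In rodents it switches on PXR, the pregnane X receptor, which senses foreign chemicals. The labels do not say that each library is a separate animal, so p-values measure effects against the spread between these libraries, which may be technical.

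Summed counts ran from 7466378 in HFD replicate 38 to 38161486 in HFD replicate 4 among the 6 libraries with counts of all genes, and estimated totals of the other 6 from 11700000 in PCN replicate 11 to 36100000 in PCN replicate 5. Of those 6, vehicle replicate 55 lay farthest out on the first principal component, at 60.8 from the centre against at most 28.2, and HFD replicate 38 on the second, at 50.9, followed by vehicle replicate 15 at 35.6. Hepatocyte markers summed to 592886 to 1141120 normalized counts in PCN libraries (6 of 7 listed markers with counts), 992877 to 1647320 in vehicle, 1289160 to 1752480 in HFD and 1822710 to 2038910 in chow libraries, and their part in the results was not tested. Of 8 listed markers of adipocytes, which also run lipogenesis, 7 had counts in vehicle and HFD libraries. One of these, Pck1, is made by hepatocytes too, and the other 6 summed to 359.9 to 667.6 normalized counts in vehicle and 559.3 to 706.7 in HFD libraries. Most of that came from Lipe (221 to 422 in vehicle, 315 to 371 in HFD) and Cfd (62.4 to 205 in vehicle, 164 to 359.8 in HFD), while the defining Adipoq and Plin1 stayed at or under 3.05 in vehicle and 1.99 in HFD libraries and Retn was at 0 in vehicle libraries. The part of adipocyte RNA was not tested. Ucp1 of brown fat was at 0 in every vehicle library and at 1.49 or less in HFD libraries.

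Below, a level is a read count divided by a size factor (a normalized count), a group value is the mean ± SD of 3 libraries, and folds are ratios of 2 group means. Rose and fell are used of genes with an adjusted p under 0.05 in the authors' deposited DESeq2 tables. The counts were tested again with edgeR's quasi-likelihood test, whose results are given beside. In pieces of whole liver, fewer cells of a type and less RNA per cell cannot be told apart.

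Promoter sequences are printed for 4 of the genes. Fasn and Acly had the nearest count profiles across the 12 libraries, Pklr was the 1 member called between PCN and HFD, and Mlxipl was the 1 gene with a match to the SREBP motif. RefSeq (GRCm38.p6) gave 16 promoter windows, each of 250 bases before to 50 after an annotated start, for the 10 genes. Both strands were searched for the SREBP motif TCACNCCAC, the E-box CACGTG, the CCAAT box CCAAT and the GC box GGGCGG, and matches are in capitals in the sequences below, 5′ to 3′ on the gene's strand. Fasn at chr11:120824498-120824797 and Acly at chr11:100527951-100528250 lie on the minus strand, Pklr at chr3:89136373-89136672 and Mlxipl at chr5:135106641-135106940 on the plus strand.
Fasn: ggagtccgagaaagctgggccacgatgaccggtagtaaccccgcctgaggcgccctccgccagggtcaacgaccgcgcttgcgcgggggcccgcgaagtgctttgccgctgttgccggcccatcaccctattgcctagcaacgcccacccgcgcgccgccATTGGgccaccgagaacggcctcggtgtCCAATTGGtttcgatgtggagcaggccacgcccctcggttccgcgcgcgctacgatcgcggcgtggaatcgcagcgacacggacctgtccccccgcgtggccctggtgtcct
Acly: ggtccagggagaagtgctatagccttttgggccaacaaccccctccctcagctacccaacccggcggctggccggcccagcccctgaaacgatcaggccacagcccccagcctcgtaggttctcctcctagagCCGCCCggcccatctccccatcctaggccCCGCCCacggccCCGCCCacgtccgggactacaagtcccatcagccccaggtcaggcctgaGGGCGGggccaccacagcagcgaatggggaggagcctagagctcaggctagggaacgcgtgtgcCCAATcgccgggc
Pklr: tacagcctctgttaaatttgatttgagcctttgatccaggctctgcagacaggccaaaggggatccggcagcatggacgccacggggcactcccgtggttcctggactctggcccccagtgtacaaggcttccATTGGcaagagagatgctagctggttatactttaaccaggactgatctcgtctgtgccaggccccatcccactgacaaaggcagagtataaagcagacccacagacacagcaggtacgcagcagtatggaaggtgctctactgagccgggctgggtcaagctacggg
Mlxipl: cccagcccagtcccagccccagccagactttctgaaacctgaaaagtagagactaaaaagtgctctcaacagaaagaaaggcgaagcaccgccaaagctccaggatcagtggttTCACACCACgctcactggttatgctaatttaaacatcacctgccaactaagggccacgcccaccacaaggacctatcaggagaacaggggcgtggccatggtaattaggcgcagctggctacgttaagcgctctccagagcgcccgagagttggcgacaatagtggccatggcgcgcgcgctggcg

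The Fasn window held 3 CCAAT boxes, at 90 to 86, 62 to 58 and 59 to 55 bases before the start, the last pair overlapping on opposite strands. The Acly window held 4 GC boxes before the start and 1 CCAAT box after it. In the Pklr window 1 CCAAT box was found, 117 to 113 bases before the start. The SREBP motif was in 1 of the 16 windows, the one of Mlxipl printed above, 136 to 128 bases before that start, against 1.24% of the 32851 promoter windows of the RefSeq table. CCAAT boxes were in 10 of the 16 windows (37.4% of all windows), GC boxes in 7 (35.7%) and the E-box in 1, another start of Mlxipl (7.15%). A match is a match of letters and not a binding site.

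The regulators come first. Srebf1 encodes SREBP1, the insulin-responsive activator of fatty acid synthesis genes (ENSMUSG00000020538, chr11:60199089-60222581, minus strand, GRCm38). It had 2102, 4582 and 1983 normalized counts in PCN replicates 5, 11 and 27, 4332, 3464 and 3875 in vehicle replicates 15, 23 and 55, 2732, 2962 and 4039.6 in HFD replicates 4, 30 and 38, and 1126, 1073 and 1225 in chow replicates 8, 17 and 19. All 9 high-fat-diet libraries lay above all 3 chow libraries, whether injected or not, and PCN replicate 11 was the highest of the 12. Against chow, Srebf1 rose 2.84-fold with HFD, 3.41-fold with vehicle and 2.53-fold with PCN. Log2 changes in the authors' deposited tables, which lie nearer to 0 than the log2 ratios of group means, were 1.40 (SE 0.16), 1.70 (SE 0.14) and 1.20 (SE 0.24), with adjusted p = 4.38e-15, 5.19e-29 and 3.21e-05. In edgeR the first pair passed (adjusted p = 0.0227 and 0.00937) and PCN against chow did not (adjusted p = 0.0777). The PCN, vehicle and HFD groups overlapped, at 2889 ± 1467, 3891 ± 434 and 3245 ± 698, and no test was passed among them.

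Mlxipl encodes ChREBP, the glucose-responsive activator of Pklr and of the enzymes of fatty acid synthesis (ENSMUSG00000005373, chr5:135089890-135138382, plus strand). Its counts were 1681, 1034 and 2534 in vehicle replicates 15, 23 and 55, 717, 990.3 and 1700.2 in HFD replicates 4, 30 and 38, and 989, 781 and 850.0 in chow replicates 8, 17 and 19. Vehicle libraries all exceeded the chow libraries, while HFD libraries lay on both sides of them. Mlxipl rose 2.0-fold between vehicle and chow (adjusted p = 0.0151 in the authors' deposited table and 0.349 in edgeR). It was called in no other table, at 1.30 times the chow mean with HFD and 1.54 times the HFD mean with vehicle.

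Thrsp encodes Spot 14, a small nuclear and cytosolic protein that raises lipogenic output and is induced by thyroid hormone and carbohydrate (ENSMUSG00000035686, chr7:97412938-97417730, minus strand); the human gene is also known as a PXR target. It had 6328, 8262 and 3509.9 counts in PCN replicates 5, 11 and 27, 8352, 5219 and 1953 in vehicle replicates 15, 23 and 55, 10805, 10488 and 8985 in HFD replicates 4, 30 and 38, and 1656, 595 and 1614 in chow replicates 8, 17 and 19. HFD libraries were the highest of all and agreed closely with each other, whereas PCN and vehicle libraries spread widely between HFD and chow. The spread was a CV of 9.63% in HFD, 39.6% in PCN and 61.8% in vehicle livers, where replicate 55, the farthest out on the first principal component, was lowest. Thrsp rose 7.83-fold between HFD and chow, the largest fold of the members there (adjusted p = 4.24e-18 in the authors' deposited table and 0.0251 in edgeR). It rose 4.68-fold between PCN and chow (adjusted p = 0.00208 in the authors' deposited table and 0.0426 in edgeR). Vehicle over chow was 4.02-fold with no overlap, yet it was not called. Vehicle and PCN livers held 0.513 and 0.598 times the HFD mean, also with no overlap and with no test passed, and PCN over vehicle was 1.17 with overlap.

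**Figure D1:**
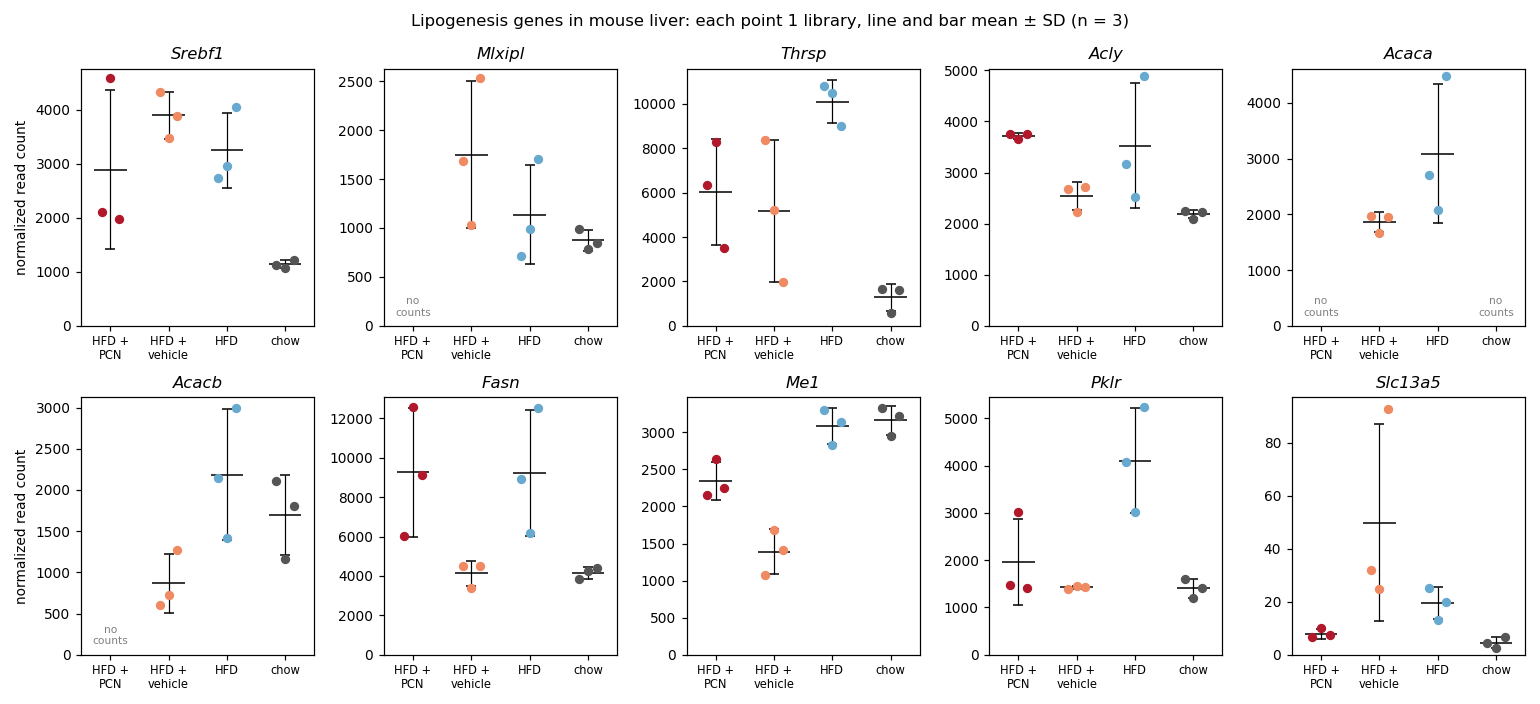
Normalized read count (vertical axis, from 0) of each of the 10 genes in the HFD + PCN, HFD + vehicle, HFD and chow groups; points are libraries, the line and bar mean ± SD (n = 3). Fasn, Me1, Acacb and Pklr are low in vehicle libraries relative to HFD libraries, while Srebf1 overlaps between them.

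The next genes supply carbon and reducing power. Slc13a5 encodes NaCT, a sodium-coupled carrier that takes citrate up from blood (ENSMUSG00000020805, chr11:72241989-72267222, minus strand), and the human gene is a known PXR target. Raw reads were few, with 12, 6 and 7 in PCN replicates 5, 11 and 27, 34, 25 and 91 in vehicle replicates 15, 23 and 55, 51, 16 and 9 in HFD replicates 4, 30 and 38, and 5, 2 and 6 in chow replicates 8, 17 and 19. Normalized counts were 6.55, 10.1 and 7.28 with PCN, 32.1, 24.8 and 92.6 with vehicle, 25.3, 13.0 and 20 with HFD and 4.33, 2.55 and 6.63 with chow. Vehicle libraries were above PCN and chow libraries without overlap, and vehicle replicate 55 alone stood far above all others. Slc13a5 fell 6.25-fold between PCN and vehicle, and 3.57-fold without vehicle replicate 55 (adjusted p = 0.00317 over all 6 libraries in the authors' deposited table and 0.246 in edgeR). It rose 11.1-fold between vehicle and chow, or 6.32-fold without vehicle replicate 55, and 4.32-fold between HFD and chow. The adjusted p of these in the authors' deposited tables were 6.09e-05 and 0.0273, against 0.0933 and 0.160 in edgeR. PCN livers held 0.410 times the HFD mean, below every HFD library but not called. About 9.57% of the exon length of Slc13a5 overlaps a transcript on the other strand, and whether counting used strand is not given in the sources used here.

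Pklr encodes the liver pyruvate kinase, the last step of glycolysis and a classic ChREBP target (ENSMUSG00000041237, chr3:89136142-89146784, plus strand). It had 1464, 3022 and 1406 counts in PCN replicates 5, 11 and 27, 1388, 1449 and 1427 in vehicle replicates 15, 23 and 55, 4077, 3013 and 5231 in HFD replicates 4, 30 and 38, and 1598, 1201 and 1420.4 in chow replicates 8, 17 and 19. HFD libraries were high, vehicle libraries were at the chow level with a CV of 2.18%, and PCN libraries split, with replicate 11 at the bottom of the HFD range and the other two at the chow level. Pklr rose 2.92-fold between HFD and chow (adjusted p = 1.67e-10 in the authors' deposited table and 0.0359 in edgeR). Vehicle livers held 2.89-fold less than HFD livers, with adjusted p = 1.39e-08 in the authors' deposited table and 0.121 in edgeR. The edgeR estimate of vehicle over HFD was 0.344 (95% interval 0.246 to 0.482). Pklr fell 2.09-fold between PCN and HFD (adjusted p = 0.0254 in the authors' deposited table and 0.422 in edgeR), although PCN replicate 11 overlapped HFD replicate 30. Vehicle over chow was 1.01, PCN over chow 1.40 and PCN over vehicle 1.38, none called. Hcn3 overlaps 22.0% of the Pklr exon length on the other strand and had at most 4 raw counts in any vehicle or HFD library.

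Acly encodes ATP citrate lyase, which splits citrate into acetyl-CoA and oxaloacetate (ENSMUSG00000020917, chr11:100476353-100528000, minus strand). Its counts were 3756, 3655 and 3758 in PCN replicates 5, 11 and 27, 2677, 2228 and 2723 in vehicle replicates 15, 23 and 55, 3162, 2528 and 4894 in HFD replicates 4, 30 and 38, and 2243, 2088 and 2228 in chow replicates 8, 17 and 19. PCN libraries were nearly equal (CV 1.58%) and all above the vehicle and chow libraries, whereas HFD libraries ranged widely. Acly rose 1.70-fold between PCN and chow, 1.61-fold between HFD and chow and 1.46-fold between PCN and vehicle. The adjusted p in the authors' deposited tables were 1.8e-08, 0.0473 and 0.0281, and in edgeR 0.0531, 0.485 and 1.0. Vehicle over HFD (0.721), PCN over HFD (1.06) and vehicle over chow (1.16) were not called and overlapped.

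Me1 encodes cytosolic malic enzyme, which makes NADPH while turning malate into pyruvate (ENSMUSG00000032418, chr9:86581371-86695953, minus strand). It had 2161, 2638 and 2243 counts in PCN replicates 5, 11 and 27, 1077, 1681 and 1417 in vehicle replicates 15, 23 and 55, 3297, 2825 and 3134 in HFD replicates 4, 30 and 38, and 3323, 2946 and 3218 in chow replicates 8, 17 and 19. Every PCN library was above every vehicle library and below every HFD and chow library, and HFD overlapped chow. Vehicle livers held 2.22-fold less Me1 than HFD livers (adjusted p = 1.63e-05 in the authors' deposited table and 0.140 in edgeR). The gene fell 2.27-fold between vehicle and chow (adjusted p = 7.62e-08 in the authors' deposited table and 0.0467 in edgeR). Between PCN and vehicle it rose 1.69-fold, and between PCN and chow it fell 1.35-fold, with adjusted p = 0.0267 and 0.0275 in the authors' deposited tables and 0.306 and 0.860 in edgeR. HFD over chow was 0.976, not called, and PCN over HFD was 0.761, not called.

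The last 3 genes carry out chain building. Acaca encodes acetyl-CoA carboxylase 1, whose malonyl-CoA is used for synthesis in the cytosol (ENSMUSG00000020532, chr11:84129672-84401651, plus strand). Its counts were 1973, 1661 and 1957 in vehicle replicates 15, 23 and 55 and 2709, 2078 and 4472 in HFD replicates 4, 30 and 38. Vehicle libraries were all below HFD libraries. Vehicle over HFD was 0.604, with adjusted p = 0.353 in the authors' deposited table and 0.356 in edgeR, so it passed neither test, and it was called in 0 of 6 tables.

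Acacb encodes acetyl-CoA carboxylase 2, whose malonyl-CoA at the mitochondrial surface blocks fatty acid entry for oxidation (ENSMUSG00000042010, chr5:114146535-114250761, plus strand). It had 602, 729.7 and 1276 counts in vehicle replicates 15, 23 and 55, 2144, 1414 and 2999 in HFD replicates 4, 30 and 38, and 2112, 1159 and 1802 in chow replicates 8, 17 and 19. Vehicle libraries were below every HFD library, and vehicle replicate 55 overlapped the chow range. Vehicle livers held 2.51-fold less than HFD livers (adjusted p = 0.0134 in the authors' deposited table and 0.246 in edgeR). Acacb fell 1.95-fold between vehicle and chow (adjusted p = 0.0360 in the authors' deposited table and 0.546 in edgeR). HFD over chow was 1.29, with overlap, and was not called.

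Fasn encodes fatty acid synthase, which assembles palmitate (ENSMUSG00000025153, chr11:120805846-120824547, minus strand). Its counts were 6040.4, 12604 and 9132 in PCN replicates 5, 11 and 27, 4510.0, 3411 and 4484 in vehicle replicates 15, 23 and 55, 8941, 6195 and 12538 in HFD replicates 4, 30 and 38, and 3831, 4255 and 4381 in chow replicates 8, 17 and 19. The 12 libraries fell into a higher level with PCN and HFD and a lower one with vehicle and chow, with no library of one in the range of the other. Fasn rose 2.24-fold between PCN and vehicle, 2.22-fold between HFD and chow and 2.23-fold between PCN and chow. In the authors' deposited tables the adjusted p were 0.00317, 7.93e-05 and 1.64e-05, and in edgeR 0.279, 0.136 and 0.0670. Vehicle livers held 2.23-fold less than HFD livers, with adjusted p = 0.00341 in the authors' deposited table and 0.214 in edgeR. PCN over HFD was 1.0 and vehicle over chow 0.995, both with overlap and not called. Leaving out 1 library at a time gave 0.822 to 1.22 for the first ratio and 0.950 to 1.08 for the second.

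Taken by comparison, HFD against chow asks what the diet alone did. Of the 10 genes 6 rose and 0 fell: Srebf1, Thrsp, Slc13a5, Pklr, Acly and Fasn. Over all genes of the authors' deposited table, 4.85% were called, 2.81% as higher and 2.05% as lower. Mlxipl, Acacb and Me1 were not called, nor was Acaca, which had no chow counts. In edgeR 3 passed, Srebf1, Thrsp and Pklr (background 0.432%, or 109 of the 1226 listed genes, the only ones that could pass). Markers of other cell types also differed by diet: the 2 of 6 stellate cell markers with counts in both groups, Col1a1 and Col3a1, summed to 1993 to 3225 normalized counts in HFD and 343 to 453 in chow libraries, and the 4 of 6 macrophage markers to 1978 to 3183 in HFD and 1226 to 1690.2 in chow libraries. Neither range overlapped. Other markers or sums of markers were lower with HFD, also with no overlap. Kdr, the 1 of 4 endothelial markers with counts, was at 732 to 774 in HFD and 1007 to 1224 in chow libraries. Krt19 and Sox9, 2 of 4 cholangiocyte markers, summed to 61.9 to 69.5 in HFD and 79.6 to 124 in chow libraries. The lower sum came from Sox9, at 49.7 to 61.0 in HFD and 75.2 to 118.7 in chow libraries. Krt19, with few counts, was higher with HFD, at 6.66 to 12.2 against 2.60 to 5.10 in chow libraries. The sum of hepatocyte markers, most of it Alb, was lower in HFD than in chow libraries as well (above). Of these markers Ttr (91629 to 109494 in HFD and 82894 to 99507 in chow libraries) and Apoc3 overlapped. Chow and PCN counts of a marker were given only where it was called in some comparison with that group. Markers with counts here and in later comparisons with chow or PCN were thus selected by a difference. Those never called are missing. The part of these cell types in the 6 higher genes was not tested.

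Vehicle against HFD asks what injection of DMSO in corn oil did, and all genes had counts there. Of the 10 genes 0 passed edgeR (background 0.00726%), and 6 had an unadjusted p under 0.05, against 12.5% of the 13775 genes tested. Pklr, Me1, Fasn and Acacb passed the authors' deposited test as lower and 0 as higher, where 0.792% of all genes were called, 0.281% as higher and 0.511% as lower. A DESeq2 refit also called 4 of the 10 (background 1.03%), as did edgeR with no filter on low counts (1.09%). The median log2 ratio over the 10 was -0.85 in edgeR, against 0.02 over all genes tested, with 7 of 10 below 0. The 3 above 0 were Srebf1, Mlxipl and Slc13a5, at 1.19 (95% interval 0.881 to 1.62), 1.54 (0.815 to 2.92) and 2.54 (1.03 to 6.23) times the HFD level. Macrophage markers summed to 3467 to 5440 normalized counts in vehicle and 5202 to 8272 in HFD libraries, and stellate cell markers to 5156 to 8617 in vehicle and 9038 to 11557 in HFD libraries, with counts for all 6 listed markers of each type. The 4 blood markers summed to 4227 to 4886 in vehicle and 5658 to 8180 in HFD libraries. The macrophage ranges overlapped, and the stellate and blood ranges did not. Their part in the lower values of the 4 genes was not tested.

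PCN against vehicle sets 2 injected groups side by side and asks what the compound did. No solvent is recorded here for the PCN injection, so a difference in solvent could not be told apart from the compound. Of the 10 genes 3 rose, Acly, Me1 and Fasn, and 1 fell, Slc13a5. Over all genes of the authors' deposited table, 1.71% were called, 1.07% as higher and 0.641% as lower. Srebf1, Thrsp and Pklr had counts and were not called, Srebf1 at 0.742 times the vehicle mean. In edgeR 0 passed (background 0.0773%, or 20 of the 442 listed genes) and 4 had an unadjusted p under 0.05. That share is set by the table, which listed called genes alone: 440 of its 442 genes were under 0.05 as well. Of the other-cell markers, the 1 of 4 blood markers with counts in both groups, Alas2, was at 722 to 1246 in PCN and 1505 to 1529 in vehicle libraries, and its part was not tested. The vehicle libraries also stand in the comparison with HFD, so the higher Me1 and Fasn values over vehicle and the lower vehicle values under HFD share them.

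PCN against HFD sets PCN livers beside livers with no injection. Of the 10 genes 1 fell, Pklr, and 0 rose, where 3.15% of all genes were called in the authors' deposited table, 1.9% as higher and 1.25% as lower. In edgeR 0 passed (background 0.511%), and 3 of the 7 with counts had an unadjusted p under 0.05: Pklr, Slc13a5 and Thrsp. Only Pklr was listed there as called, and 800 of the 809 genes so listed were under 0.05 as well. Slc13a5 and Thrsp were not listed, so that share is no background for them. A share over all genes was not available, because the table gave values for called genes alone. Col1a1 and Col3a1 summed to 1002 to 1624 in PCN and 1993 to 3225 in HFD libraries, and Alas2 was at 722 to 1246 in PCN and 1343 to 2705 in HFD libraries. Neither range overlapped. The 6 of 7 hepatocyte markers with counts summed to 592886 to 1141120 in PCN and 1201870 to 1661440 in HFD libraries. Cfd and Pck1, of the adipocyte list, summed to 9146 to 29179 in PCN and 30334.5 to 55674 in HFD libraries. Nearly all of that sum was Pck1, which hepatocytes make too (9145 to 29172 in PCN and 30170 to 55367 in HFD libraries). Cfd was at 1.04 to 6.74 in PCN and 164 to 359.8 in HFD libraries. These ranges did not overlap either, while Cd68 of macrophages and Krt19 with Sox9 of cholangiocytes overlapped. The part of these cell types was not tested.

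Both injected groups were also compared with chow. With vehicle 3 genes rose (Srebf1, Mlxipl and Slc13a5) and 2 fell (Me1 and Acacb), where 3.1% of all genes were called in the authors' deposited table, 1.72% as higher and 1.38% as lower. In edgeR 2 passed, Srebf1 and Me1 (background 0.353%, or 90 of the 790 listed genes). With PCN 4 rose (Srebf1, Thrsp, Acly and Fasn) and 1 fell (Me1), where 8.1% of all genes were called in the authors' deposited table, 4.43% as higher and 3.67% as lower. In edgeR 1 passed, Thrsp (background 2.31%, or 580 of the 2032 listed genes). Hepatocyte markers summed to 992877 to 1647320 in vehicle and 1822710 to 2038910 in chow libraries. The 6 with PCN counts summed to 592886 to 1141120 in PCN and 1698650 to 1920970 in chow libraries. Alas2 was also lower than in chow libraries in both injected groups. With PCN, the sums of Cfd with Pck1 and of Krt19 with Sox9 were lower too. Cd68 and the sum of Col1a1 with Col3a1 were higher. None of these ranges overlapped, and the part of these cell types was not tested. The lower sums came mostly from Pck1, which hepatocytes make too, and from Sox9 (25.1 to 59.0 in PCN and 75.2 to 118.7 in chow libraries). Krt19 alone was at 3.37 to 49.7 in PCN and 2.60 to 5.10 in chow libraries.

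**Figure D2:**
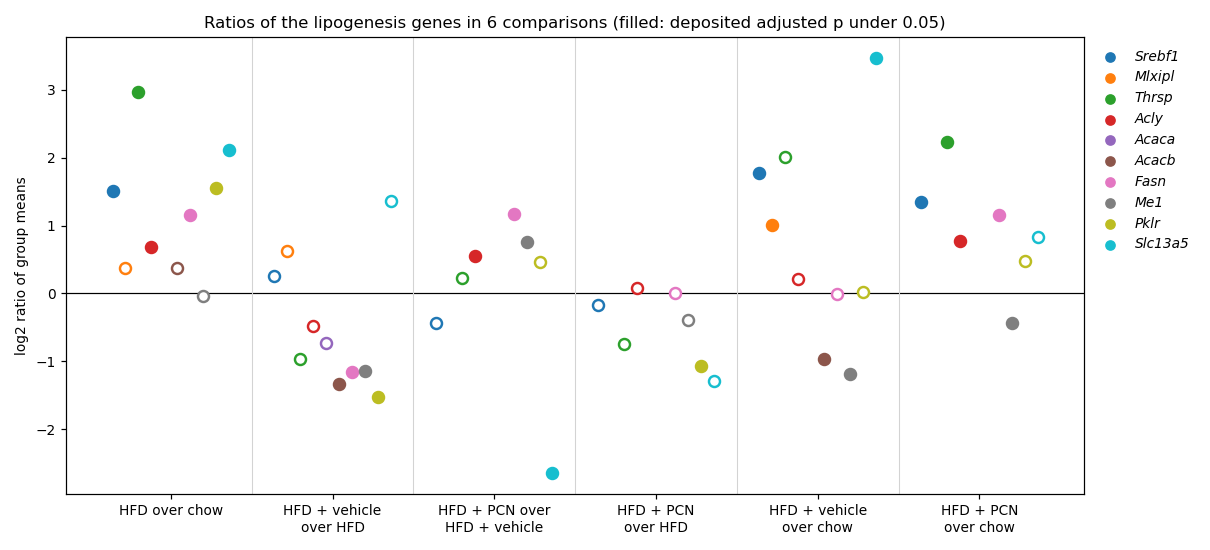
Log2 ratio of group means (vertical axis) of the 10 genes in the 6 comparisons named on the horizontal axis; filled circles had an adjusted p under 0.05 in the authors' deposited tables, open circles did not, and genes with no counts in a group are not drawn. In vehicle over HFD 7 of 10 genes lie below 0, and in PCN over vehicle Fasn, Me1 and Acly lie above 0.

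Ratios between 6 pairs of the genes were taken within each library, and vehicle libraries lay below all others with counts in 3 of them. Fasn over Srebf1 was 3.41 ± 1.04 with PCN, 1.06 ± 0.0879 with vehicle, 2.82 ± 0.639 with HFD and 3.65 ± 0.288 with chow. The 3 vehicle libraries, at 0.985 to 1.16, lay below all 9 others, whose lowest value was 2.09. Acly over Srebf1 was 1.49 ± 0.605 with PCN, 0.655 ± 0.0436 with vehicle, 1.07 ± 0.193 with HFD and 1.92 ± 0.0887 with chow, again with all vehicle libraries lowest. Pklr over Mlxipl was 0.930 ± 0.429 with vehicle, 3.93 ± 1.52 with HFD and 1.61 ± 0.0671 with chow, and these 3 ranges did not overlap. Acaca over Acacb was 2.36 ± 0.875 with vehicle and 1.41 ± 0.126 with HFD, with every vehicle library above the HFD range. Thrsp over Srebf1 was 2.19 ± 0.707 with PCN, 1.31 ± 0.731 with vehicle, 3.24 ± 0.904 with HFD and 1.11 ± 0.491 with chow, and here vehicle libraries overlapped PCN and chow libraries. Fasn over Acly was 2.50 ± 0.922 with PCN, 1.62 ± 0.0801 with vehicle, 2.61 ± 0.194 with HFD and 1.90 ± 0.173 with chow, and vehicle libraries overlapped PCN libraries. These ratios need no size factor, and with 3 libraries a group an exact permutation test cannot give p under 0.1, so no test was made.

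**Figure D3:**
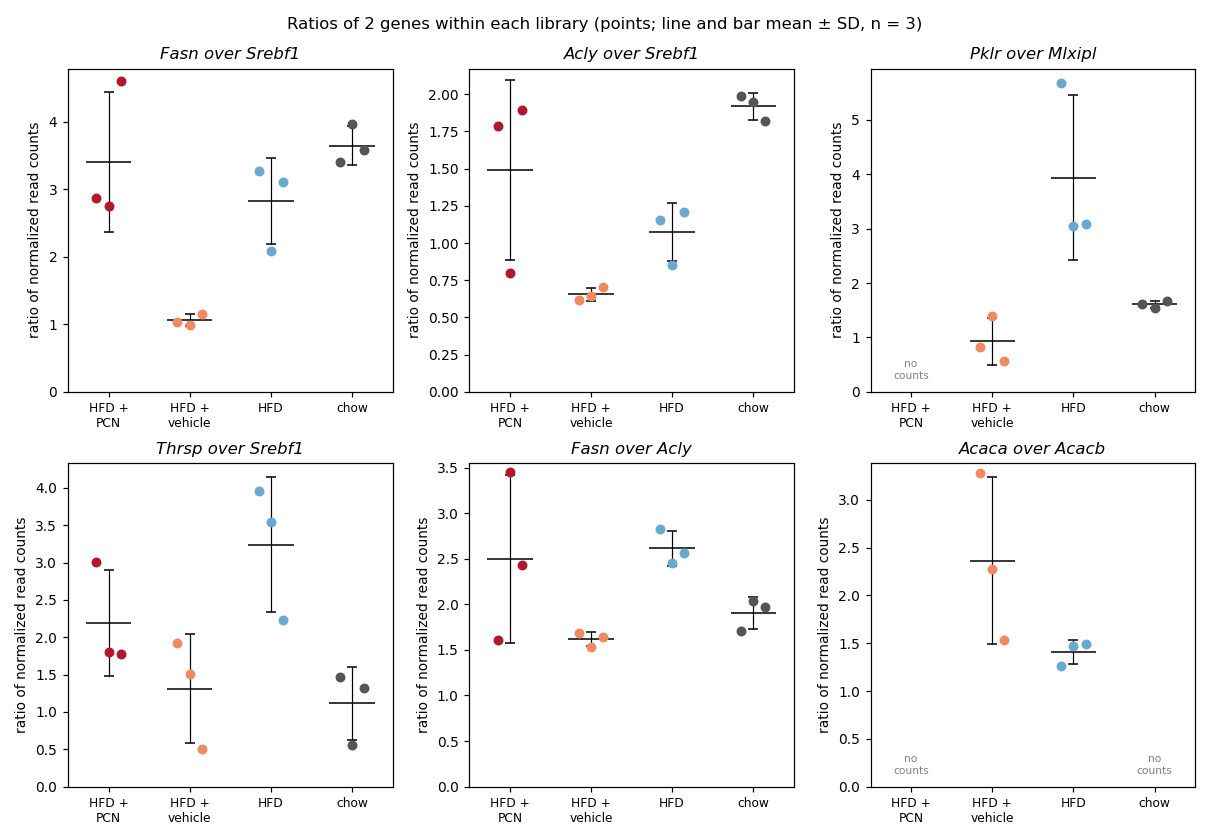
Ratio of the normalized counts of the 6 pairs of genes named over the panels within each library (vertical axes, from 0), by group; points are libraries, the line and bar mean ± SD (n = 3). Vehicle libraries are lowest for Fasn over Srebf1 (0.985 to 1.16), Acly over Srebf1 and Pklr over Mlxipl, overlap other groups for Thrsp over Srebf1 and Fasn over Acly, and lie above HFD for Acaca over Acacb.

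Levels of different genes can be set side by side per kilobase of exon. Thrsp was the most abundant of the members in PCN livers (2756 ± 1092 normalized counts per kb), vehicle livers (2364 ± 1462) and HFD livers (4610.5 ± 444). In chow livers Me1 led (822 ± 50.6), and every Thrsp library lay below the lowest Me1 library there (589 ± 275). Slc13a5 was the least abundant everywhere, at 1.62 ± 0.380 per kb with PCN, 10.1 ± 7.53 with vehicle, 3.94 ± 1.25 with HFD and 0.912 ± 0.414 with chow. Between them, Pklr was next to Thrsp in HFD livers (1269 ± 343), its range overlapping that of Fasn (843 ± 291), and Srebf1 was next to Thrsp in vehicle livers (691 ± 77.1). Of the carboxylases, per kb levels were 109 ± 10.3 for Acaca and 90.2 ± 37.2 for Acacb with vehicle, and 181 ± 72.7 for Acaca and 227 ± 82.3 for Acacb with HFD, overlapping in both groups.

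**Figure D4:**
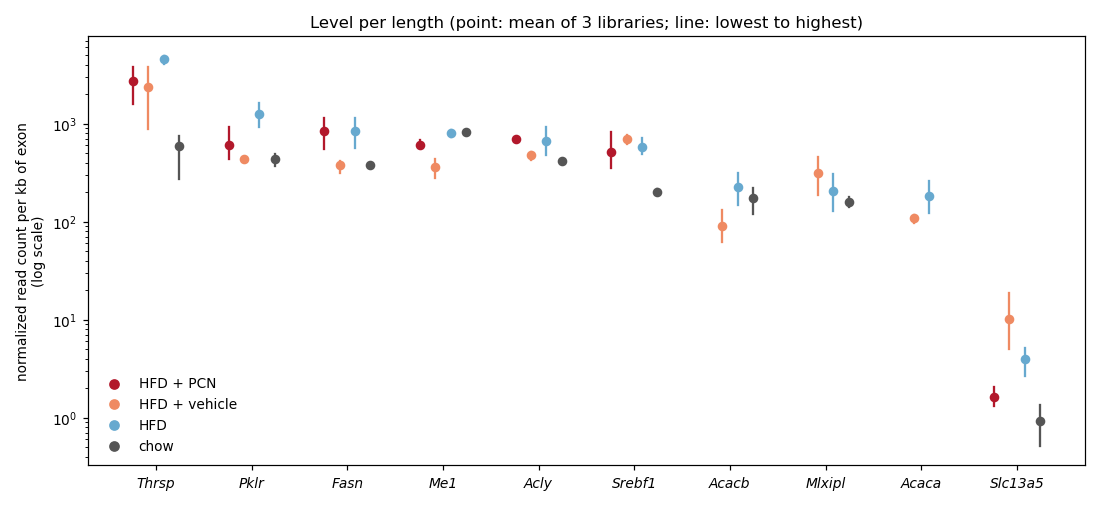
Normalized read count per kilobase of exon (vertical axis, log scale) of the 10 genes in the 4 groups, ordered by the HFD mean; points are means of 3 libraries and lines run from the lowest to the highest library. Thrsp is highest in HFD at 4610 per kb and Slc13a5 is lowest in every group.

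Single libraries carried part of the spread. HFD replicate 38, the shallowest library, was the highest of the HFD libraries for 7 of the 10 genes, against 32.2% of all genes with a mean of at least 50 there. PCN replicate 11, the shallowest PCN library, was the highest PCN library for 6 of the 7 genes with counts, against 33.4% of all such genes. The part of depth in these values was not tested. Over the 7 genes with counts in all libraries, profiles across the 12 libraries were nearest for Acly and Fasn (root mean square distance 0.360 on the centred log2 scale), then Fasn and Pklr (0.462), and farthest for Me1 and Slc13a5 (1.63). Among 1956 genes with counts in all 12 libraries and a mean of at least 50, those nearest to the median profile of the 7 were Rassf4 (0.271), Tcp11l1 (0.282), Abcg1 (0.290), Sbk1 (0.298) and Tenm3 (0.303). The members themselves lay 0.321 (Pklr) to 1.22 (Slc13a5) from it.

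Other genes of the route were counted in the same tables. Over all genes 4.85% were called for HFD against chow, 0.792% for vehicle against HFD and 1.71% for PCN against vehicle. The shares were 3.15% for PCN against HFD, 3.1% for vehicle against chow and 8.1% for PCN against chow. Of 16 genes of elongation, desaturation and glycerolipid synthesis, 0 were higher and 5 lower with vehicle than with HFD in the authors' deposited table. Scd1, which makes monounsaturated fatty acids, had 2849.8 to 23759.9 normalized counts in vehicle and 159866 to 210342 in HFD libraries, 14.5-fold lower. Elovl5 and Elovl6, elongases of long-chain fatty acids, were 4.08-fold and 3.60-fold lower, and Mogat1, a monoacylglycerol acyltransferase, 2.96-fold lower. In edgeR 0 of the 16 passed there, 9 had an unadjusted p under 0.05, and their median log2 ratio was -0.67 against 0.02 over all genes tested. Between PCN and vehicle 4 of the 16 rose and 0 fell: Elovl6 3.94-fold, Fads1, a desaturase, 1.99-fold, Elovl1 1.72-fold and Gpam, the first step of glycerolipid synthesis, 1.56-fold. With HFD against chow 1 of the 16 rose, Mogat1 (4.31-fold), and 2 fell, Elovl3 (3.98-fold) and Elovl2 (1.69-fold). Between PCN and HFD 1 rose and 3 fell, Elovl5 among them (4.14-fold). Against chow 0 of the 16 rose and 7 fell with vehicle, and 4 rose and 5 fell with PCN. Elovl5 counts were 2985 to 5491 in PCN, 3000.1 to 4982 in vehicle, 12406 to 18766 in HFD and 15874 to 19529.9 in chow libraries, so both injected groups lay below both others. The same held for Scd1, at 5464 to 60908 in PCN and 183725 to 347591 in chow libraries, though it was not called between PCN and HFD. Scd1 was 10.4-fold lower with PCN and 21.4-fold lower with vehicle than with chow.

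Of 10 genes of citrate, acetyl-CoA and NADPH supply, 3 rose and 1 fell between PCN and vehicle. Tkt, transketolase of the pentose phosphate pathway, rose 1.90-fold, Acss2, which activates acetate, 1.87-fold and Slc25a1, the mitochondrial citrate exporter, 1.41-fold, and Pcx, pyruvate carboxylase, fell 1.5-fold. Pgd and Taldo1, also of the pentose phosphate pathway, were the 2 that rose between HFD and chow, 1.92-fold and 1.26-fold, and Taldo1 was the 1 gene lower with vehicle than with HFD in the authors' deposited table (1.44-fold). Of 12 genes of glycolysis and glucose entry 5 rose and 0 fell between HFD and chow, among them Slc2a2, the liver glucose transporter (1.6-fold), and Gckr, the inhibitor of glucokinase (1.49-fold). Eno1, Gapdh and Khk were 1.82-fold, 1.68-fold and 1.56-fold lower with vehicle than with HFD in the authors' deposited table, and 0 of the 12 were higher. In edgeR 0 of the 10 supply genes and 0 of the 12 glycolysis genes passed between vehicle and HFD, with 4 and 5 at an unadjusted p under 0.05 and median log2 ratios of -0.32 and -0.40.

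Of 20 other regulators of lipogenesis, 3 rose and 2 fell between PCN and chow, 1 rose and 2 fell between vehicle and chow, 1 rose between PCN and HFD, and 1 fell in each of PCN against vehicle and HFD against chow. The 1 of 20 between HFD and chow was near the 4.85% of all genes called there. None of the 20 was called between vehicle and HFD in the authors' deposited DESeq2 table. There edgeR passed 0 and had 2 at an unadjusted p under 0.05, against 12.5% of all genes tested. Nr0b2 (SHP), a nuclear receptor that represses other factors, was the 1 regulator called between PCN and vehicle and between HFD and chow, where it fell 2.47-fold and 2.33-fold, and it fell 2.92-fold between PCN and chow. Insig1, which holds the SREBP escort protein in the endoplasmic reticulum, rose 2.70-fold between PCN and HFD and 2.48-fold between PCN and chow. Insig2, its relative, fell 2.61-fold between vehicle and chow and 2.25-fold between PCN and chow. Mid1ip1, a relative of Thrsp that helps acetyl-CoA carboxylase polymerise, rose 2.27-fold between PCN and chow, and Pparg, a nuclear receptor of fat storage named here after its values were seen to complete the count, rose 1.95-fold. Nr1i2, which encodes PXR, rose 1.46-fold and Irs1, an insulin receptor substrate, fell 1.53-fold between vehicle and chow. Of 10 measured genes among 11 other reported SREBP1c or ChREBP targets, 2 were lower and 0 higher with vehicle than with HFD in the authors' deposited table, Tkfc (1.69-fold) and Gpd1 (1.68-fold). Between PCN and vehicle 0 of these rose and 1 fell, Gpd1 (1.6-fold). Between HFD and chow 2 rose and 1 fell, and between PCN and chow 2 rose and 1 fell. Aacs, which makes acetoacetyl-CoA for lipid synthesis, rose 3.10-fold and 2.99-fold in these comparisons. The genes that fell there were Acsl5 (1.24-fold) and Gpd1 (3.46-fold). Between PCN and HFD 1 rose, Acsl3 (2.90-fold), and 2 fell, G6pc (9.47-fold) and Gpd1 (2.69-fold). Between vehicle and chow 0 rose and 2 fell.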

How the data were processed

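Liver RNA of 12 samples was sequenced. The submitters' processing notes name HISAT2, HTSeq and DESeq2 and the builds GRCm38 and mm10, and give no versions. The 6 pairwise tables that the authors deposited hold, per the file headers, raw counts per gene for 6 libraries each. They also hold DESeq2 output, with p-values, log2 changes and their errors. The table of vehicle against HFD was complete (26015 genes), and the other 5 gave values for called genes alone. Counts listed in more than 1 table were equal (15768 compared, 0 differed).

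Size factors were solved for from the counts and the deposited mean of normalized counts, and put on 1 scale over the 12 libraries (largest difference 0.518%); estimated totals of libraries without all counts were off by up to 19.2% where both were known. Vehicle against HFD was tested with edgeR 4.0.16 (quasi-likelihood, TMM, filterByExpr, Benjamini-Hochberg over 13775 genes). In the other 5 comparisons the calls are the authors' deposited adjusted p under 0.05. There edgeR's likelihood ratio was computed for the listed genes and scaled by a dispersion estimate, with a prior taken from the complete table. P was adjusted by Benjamini-Hochberg over an estimate of how many genes the authors tested. Members with counts that were not listed had an unadjusted p alone. Both edgeR procedures were tried on a complete simulated table. The second took its prior there from that same table, so its use on called genes alone with a borrowed prior was not tested. DESeq2 1.42.0 was an alternative. Tests were two-sided.

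All 10 members are given. Members, gene lists and motifs were chosen with earlier results of these data known. Of each list, up to 4 called genes per comparison with the largest deposited log2 change and a mean count of at least 50 could be named. Exon lengths are from GENCODE M21, whose positions for all 10 genes equal those of the files. Coordinates are on GRCm38 and count from 1. Intervals are 95%.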

Additional observations from a re-analysis of the deposited data

How the results depend on the processing

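The number of the 10 genes called depended on the test in all 6 comparisons. In place of the authors' deposited adjusted p, edgeR called 3 in place of 6 for HFD against chow, 0 in place of 4 for PCN against vehicle, 0 in place of 1 for PCN against HFD, 2 in place of 5 for vehicle against chow and 1 in place of 5 for PCN against chow. With 1 library left out, edgeR called 0 to 2 for HFD against chow, 0 for PCN against vehicle, 0 for PCN against HFD, 0 to 1 for vehicle against chow and 0 to 1 for PCN against chow. For vehicle against HFD edgeR called 0, also with DESeq2 size factors and with any 1 library left out, while no filter on low counts, a DESeq2 refit and the authors' deposited p called 4 each. The cause was not tested.

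Of 49 ratios of group means under 343 alternatives, 0 called ratios changed direction. The 25 called ratios kept their direction in every alternative, and 2 moved over 1.5 times, both of Slc13a5 and both without vehicle replicate 55. Scaling by the summed counts of 2227 genes shifted log2 ratios by a median of 0.28 for HFD against chow, -0.16 for vehicle against HFD and 0.11 for PCN against vehicle. The median shift was -0.05 for PCN against HFD, 0.12 for vehicle against chow and 0.23 for PCN against chow. These medians were over genes with counts in both groups and a mean of at least 50. They numbered 10559 for vehicle against HFD and 2461 for HFD against chow. Outside vehicle against HFD they were genes called in some comparison, as were the 2227. Under this scaling Me1 for HFD against chow, not called, was 1.19 in place of 0.976. Acly and Me1 for PCN against chow were 2.0 and 0.874, and no ratio changed by over 1.25-fold. Slc13a5, with 2 to 91 raw reads a library, is limited by depth. No paired analysis was possible because the replicate numbers in the labels differ between the groups.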
